A study of Homo sapiens with 52 samples.

Results

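The late step of retinoic acid differentiation was examined in the human embryonic stem cell line H1, by setting days 9 and 10 of treatment against days 7 and 8. Each of these 4 days had 2 biological replicates per the labels, so 4 samples of days 9-10 were compared with 4 of days 7-8, 8 of the 26 samples in the series. H1 is an established line derived from a human blastocyst. The cells had been grown in mTeSR, a defined medium for undifferentiated stem cells, on a Matrigel coating, and both pools had received 5 µM retinoic acid from the start of the course. The remaining samples were H1 at day 0, before treatment, H1 at days 1 to 6, and the undifferentiated lines HUES8 and H9. No untreated H1 culture of days 1 to 10 was analysed here, so time in culture and time in retinoic acid cannot be told apart. The labels do not say whether replicates came from separate platings, and the p-values then measure the spread between these samples.

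Retinoic acid enters cells and binds nuclear receptors that act on target genes directly, among them the HOX clusters and the enzymes of the CYP26 family that degrade it. In pluripotent stem cells it ends self-renewal: transcription factors, RNA regulators and chromatin enzymes of the undifferentiated state decline, and lineage genes appear. Differentiating cells commonly also slow their division, a change in which replication genes fall and inhibitors of cyclin-dependent kinases rise.

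Each sample was hybridised to the A chip and to the B chip of the Affymetrix HG-U133 set, and as their probe sets differ each chip was analysed by itself. The value of a gene is its MAS5 signal, a linear intensity scaled by the authors to a common mean per array. MAS5 also gives a detection p-value, and a gene is called present here where that p is under 0.05. After a filter on present calls, 12201 genes were tested. The median log2 difference over all of them, days 9-10 minus days 7-8, was -0.001.

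Array quality was compared first, through the ratio of the 3′ to the 5′ signal of the actin gene ACTB, which increases as RNA is degraded or its labelling is cut short. On the A chip the ratio was 1.503 and 1.512 on day 9 and 1.89 and 1.45 on day 10, against 1.40 and 1.54 on day 7 and 1.46 and 1.54 on day 8. On the B chip it was 1.80 and 1.57 on day 9 and 1.98 and 1.59 on day 10, against 1.79 and 1.55 on day 7 and 1.69 and 1.61 on day 8. Replicate 1 of day 10 had the highest ratio of all 26 samples on each chip, and the other days 9-10 samples lay in or close to the range of days 7-8. The means were 1.59 ± 0.20 at days 9-10 and 1.49 ± 0.067 at days 7-8 on the A chip (SD, n = 4 each, two-sided exact permutation p = 0.486). They were 1.74 ± 0.19 and 1.66 ± 0.11 on the B chip (SD, n = 4 each, two-sided exact permutation p = 0.514), and the smallest p this design allows is 0.0286. Without replicate 1 of day 10 the difference fell to 0.0017 on the A chip and to -0.0042 on the B chip. The 3′ to 5′ ratio of GAPDH averaged 0.836 at days 9-10 and 0.830 at days 7-8 on the A chip. The share of probe sets called present averaged 51.3% at days 9-10 and 51.9% at days 7-8 on the A chip, and 39.0% and 38.0% on the B chip.

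**Figure D1:**
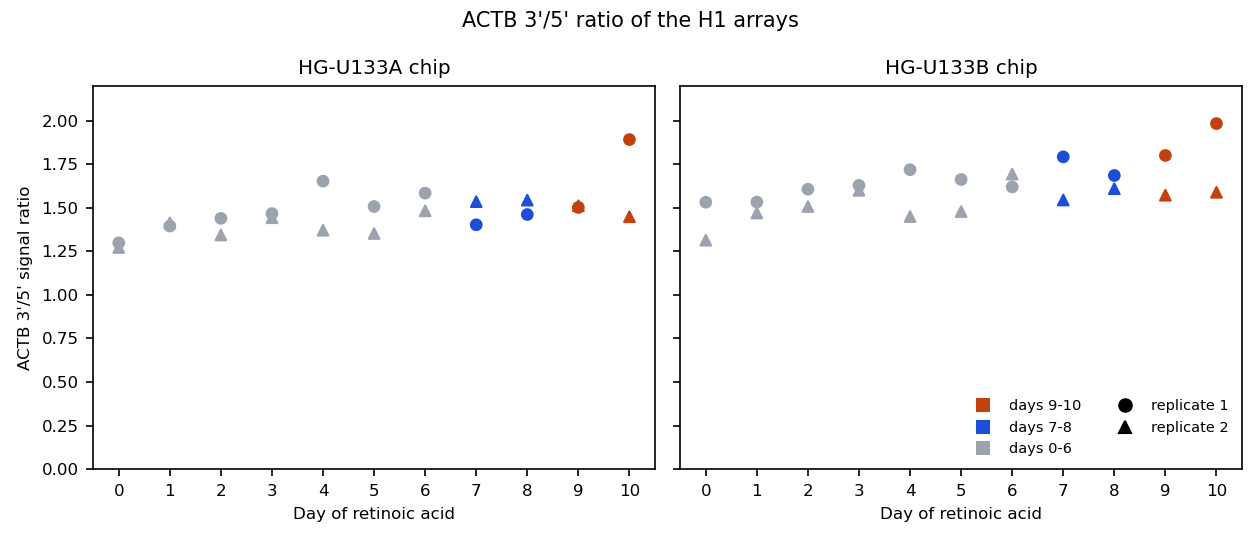
Ratio of the 3′ to the 5′ ACTB signal of every H1 sample (vertical axis, no unit) against the day of retinoic acid (horizontal axis), for the A chip on the left and the B chip on the right. Colours mark days 9-10, days 7-8 and days 0-6 and the marker shape the replicate number; replicate 1 of day 10 is the highest point on each chip, at 1.89 and 1.98, and the other points of days 9-10 lie between 1.45 and 1.80.

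Between days 7-8 and days 9-10 a small part of the transcriptome still moved. Of 12201 genes, 178 were called (limma, adjusted p under 0.05), which is 1.46% of those tested. Of these 52 rose, or 0.426%, and 126 fell, or 1.03%. At an unadjusted p under 0.05 were 1658 genes, or 13.6%, the share to read beside the unadjusted counts of the gene lists. Of the gene lists examined, DNA replication and core pluripotency held the most genes that fell, and the fibroblast and matrix list the most that rose. A change of at least 2-fold was seen in 30 of the risen and 47 of the fallen genes, and one of at least 4-fold in 4 and 13 of them. Over all genes, 889 had signals that did not overlap between the 4 samples of each pool, or 7.29%. Of the called genes, 143 were of this kind, 46 that rose and 97 that fell.

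The count of calls rests on the shared estimate of spread and on single samples. The excess of falls over rises was absent where few calls were left. A fit to the 8 samples alone called 16 genes, 9 higher and 7 lower, one to 2 pools without a day term called 1, which was higher, and days 9-10 against day 8 alone gave 3 higher and 3 lower. Leaving out 1 sample at a time gave between 69 calls (without replicate 2 of day 7) and 294 (without replicate 1 of day 10).

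**Figure D2:**
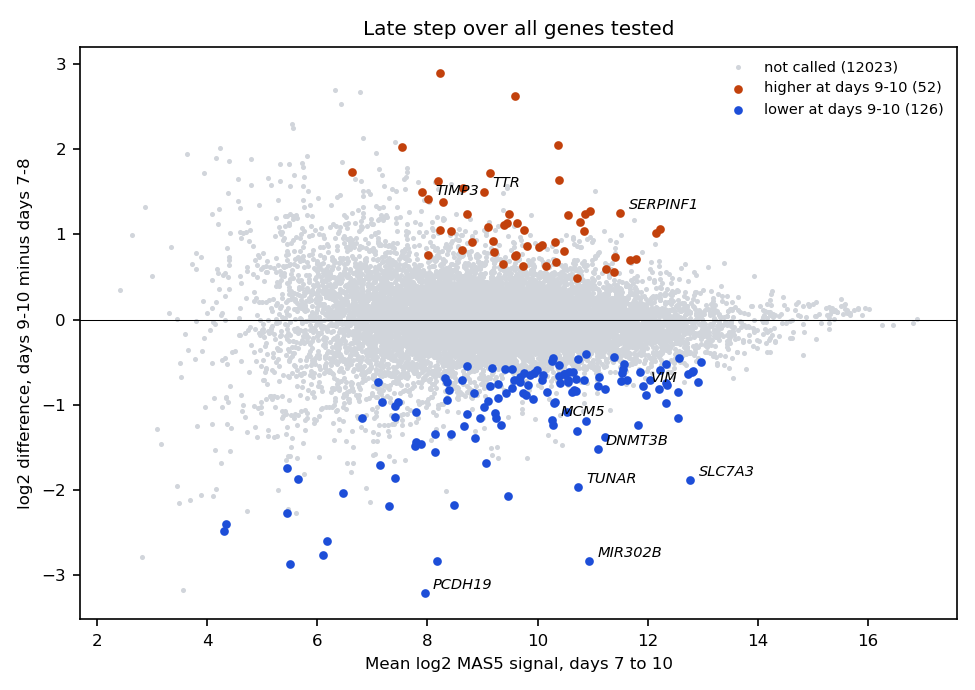
Log2 difference of each gene, days 9-10 minus days 7-8 (vertical axis), against its mean log2 MAS5 signal over days 7 to 10 (horizontal axis). Each point is a gene: 52 called higher, 126 called lower and 12023 not called, with the lower calls reaching a log2 difference of -3.21 in PCDH19.

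The difference was carried more by day 10 than by day 9, and more calls came against day 7 than against day 8. Every one of the 52 genes that rose and of the 126 that fell had its means of day 9 and of day 10 on the same side of days 7-8. Day 10 lay farther out than day 9 in 48 of the risen and in 114 of the fallen genes. The median log2 difference of the genes that rose was 0.81 at day 9 and 1.24 at day 10, and that of the genes that fell was -0.64 at day 9 and -1.04 at day 10. These genes were called on the same samples, so the medians describe them and test nothing. Day 10 taken alone against days 7-8 gave 278 calls in limma, or 2.28% of genes, 59 higher and 219 lower. Day 9 alone gave 0 calls, with 716 genes at an unadjusted p under 0.05. Days 9-10 against day 7 alone gave 217 calls, 73 higher and 144 lower, and against day 8 alone 6. Of the single steps, day 8 against day 7 called 1 gene, and day 9 against day 8 and day 10 against day 9 each called 0 in limma, with 516 and 569 genes at an unadjusted p under 0.05.

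Some genes of the undifferentiated state still fell. Of 22 measured genes of a core pluripotency list, 4 fell and none rose (limma), beside 1.03% of all genes that fell, and 13 had an unadjusted p under 0.05, beside 13.6% of all genes. The median log2 difference of the list was -0.67, beside -0.001 over all genes, and 19 of the 22 were lower. At days 7 to 10, 11 of the 22 were present in all 8 samples and 4 in none. Summed over the list, the signal ranged from 34947 to 48513 at days 9-10 and from 54318 to 81334 at days 7-8, with no overlap. These are bulk samples, in which fewer cells of a kind and less RNA per cell cannot be told apart.

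DNMT3B encodes a de novo DNA methyltransferase that is abundant in undifferentiated cells. Its signal was 1871 and 1535 on day 9 and 1072 and 883 on day 10, against 3498 and 6647 on day 7 and 3076 and 2564 on day 8. Every sample of days 9-10 was below every sample of days 7-8. The log2 difference was -1.52 (SE 0.20, limma adjusted p = 0.00026), or 2.87-fold lower. The DNMT3B signal averaged 10178 at day 0, so the decline continued at the end of the course to a level well under the starting one.

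USP44, a deubiquitinase of the mitotic checkpoint that marks stem cells, had 470 and 304 on day 9 and 213 and 222 on day 10, against 1029 and 1178 on day 7 and 754 and 352 on day 8. Only the lowest days 7-8 sample fell inside the range of days 9-10. The log2 difference was -1.39 (SE 0.24, limma adjusted p = 0.0041). PODXL, which encodes the surface sialomucin podocalyxin that carries stem cell antigens, fell by 1.23 on the log2 scale (limma adjusted p = 0.016). GAL, the galanin neuropeptide gene, was present in 1 of 4 samples of days 9-10 and in 3 of 4 of days 7-8, and its log2 difference was -1.70 (limma adjusted p = 0.020).

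NANOG and SOX2, transcription factors at the head of the network, gave no call. NANOG had 243 and 105 on day 9 and 104 and 79.2 on day 10, against 369 and 374 on day 7 and 405 and 115.5 on day 8. Its log2 difference of -1.24 missed the threshold (limma adjusted p = 0.052), and it was present in 1 of 4 samples of days 9-10 and 2 of 4 of days 7-8. SOX2, which neural progenitors also use, was present in all 8 samples with a log2 difference of -0.27 (SE 0.24, limma adjusted p = 0.69). LIN28A, the RNA-binding protein that blocks let-7 maturation, had a log2 difference of -0.75 (SE 0.22, limma adjusted p = 0.10) and was present in all 8 samples. POU5F1 had no probe set annotated to it alone. Probe sets annotated to its near-identical copies POU5F1B, POU5F1P3 and POU5F1P4, singled out after their values were seen, had log2 differences of -1.24, -1.03 and -1.09. All 3 were called, but a probe set of this kind can also read POU5F1 itself, so which gene changed is uncertain.

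The call count of this list was 4 in the full fit. It was 1 in the fit to the 8 samples alone and 0 as 2 pools without a day term. It was 2 without replicate 2 of day 7, without replicate 1 of day 8 or without replicate 2 of day 9.

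The transcript of the miR-302 locus, picked out after its values were seen, had one of the largest falls. The locus makes a cluster of microRNAs that are among the most abundant in human embryonic stem cells and that speed entry into S phase there. Mature forms of the cluster on chromosome 4 are printed, from RefSeq on build GRCh38.p14, 5′ to 3′, to show what the locus encodes. Capitals mark the seed, bases 2 to 8, which pairs with target messages.
miR-302a-3p: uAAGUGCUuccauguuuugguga
miR-302b-3p: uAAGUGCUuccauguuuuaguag
miR-302c-3p: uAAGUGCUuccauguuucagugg
miR-302d-3p: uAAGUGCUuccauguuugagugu
miR-367-3p: aAUUGCACuuuagcaaugguga
The miR-302 forms share the seed AAGUGCU, and miR-367 carries AUUGCAC.

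The probe set annotated to MIR302B reads a polyadenylated transcript of the locus, not these mature forms, which the arrays do not measure. Its signal was 2275 and 544 on day 9 and 712 and 329 on day 10, against 6829 and 11388 on day 7 and 4421 and 2161 on day 8. The highest sample of days 9-10 slightly exceeded the lowest of days 7-8, and no other values overlapped. The log2 difference was -2.83 (SE 0.37, limma adjusted p = 0.00026), or 7.12-fold lower. At day 0 the same probe set averaged 65885.

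Other genes with large falls and with separate signals in the pools included TUNAR and SLC7A3. TUNAR is a long noncoding RNA tied to pluripotency. It had 1349 and 1475 on day 9 and 529 and 514 on day 10, against 2338 and 8287 on day 7 and 1686 and 3856 on day 8, a log2 difference of -1.97 (SE 0.29, limma adjusted p = 0.00086). SLC7A3, a transporter of cationic amino acids, had 5707 and 6218 on day 9 and 2246 and 2199 on day 10, against 10989 and 28324 on day 7 and 8641 and 12034 on day 8. Its log2 difference was -1.88 (SE 0.24, limma adjusted p = 0.00026). In both genes the day 10 samples were the lowest of the 8 and replicate 2 of day 7 the highest.

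Some genes that copy DNA fell. Of 29 measured DNA replication genes, 9 fell and none rose, beside 1.03% of all genes that fell, and 24 had an unadjusted p under 0.05, beside 13.6% of all genes. The median log2 difference of the list was -0.53, with -0.33 at day 9 and -0.73 at day 10, and 28 of the 29 were lower. The summed signal ranged from 26057 to 42984 at days 9-10 and from 45790 to 57757 at days 7-8. The 9 were MCM5, MCM4, MCM3, MCM7 and MCM2, which are subunits of the replicative helicase, GINS2 of the helicase's activating complex, RFC3 of the clamp loader, POLE2 of DNA polymerase epsilon, and UHRF1, which carries DNA methylation over to new strands. All but MCM5, MCM4 and UHRF1 were added to the text after their values were seen.

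MCM5 had the largest fall of the list. Its signal was 1301 and 839 on day 9 and 794 and 511 on day 10, against 1827 and 2553 on day 7 and 1515 and 1653 on day 8. The pools did not overlap, and the log2 difference was -1.18 (SE 0.16, limma adjusted p = 0.00056). MCM4 had 995 and 738 on day 9 and 833 and 874 on day 10, against 1424 and 1994 on day 7 and 1132 and 1751 on day 8. Its log2 difference was -0.85 (SE 0.17, limma adjusted p = 0.010), and 3 further probe sets of MCM4 gave -0.79, -0.87 and -0.98. UHRF1 had 1793 and 1483 on day 9 and 996 and 908 on day 10, against 2537 and 2750 on day 7 and 1839 and 1893 on day 8, a log2 difference of -0.83 (SE 0.18, limma adjusted p = 0.019). The log2 differences of the other 6 lay between -0.71 in GINS2 and -0.45 in RFC3.

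The replication genes that missed the threshold included PCNA, the sliding clamp, at -0.77 (limma adjusted p = 0.055), and RRM2, a subunit of ribonucleotide reductase, at -0.61 (limma adjusted p = 0.071). The number of replication genes that fell depended on the shared estimate of spread and on single samples. It was 0 in the fit to the 8 samples alone and 0 as 2 pools without a day term. It was 1 without replicate 2 of day 7, 2 without replicate 2 of day 8, and 3 without replicate 2 of day 9 or of day 10, and it was 13 without replicate 1 of day 10. The list's median lay between -0.42 and -0.65 under each of these omissions.

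Many replication genes carry binding motifs of the E2F factors, which switch on S phase genes, near their start. The letters TTTCCCGC, TTTCGCGC, TTTGCCGC and TTTGGCGC were searched on both strands of the 300 bases from 250 before to 50 after each RefSeq start. At least 1 was found in 14 of 26 promoters of the list that the reference held, or 53.8%, against 3.33% of 27305 promoters of all kinds and 5.26% of 9959 promoters of genes tested. The list was chosen by function, so its share beside that of all promoters is a description and no test. All 7 of the fallen genes with a promoter in the table held a match, and 7 of the 19 that were not called did. This difference was not tested, and the log2 differences of both groups overlap. PCNA at -0.77 and CDT1 at -0.70 were not called, while RFC3 at -0.45 was. MCM5 and MCM4 are not among the 26. Some matches overlap, since TTTCGCGC can share bases with its reverse complement, and a match is a string of letters and no measure of binding.

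The 120 bases before the start are printed for the fallen genes with a match there, 5′ to 3′ on the gene's strand, build GRCh38.p14, with the matches in capitals. Their positions are chr7:100101398-100101517 (minus strand) for MCM7, chr16:85688955-85689074 (minus strand) for GINS2, chr13:33818029-33818148 (plus strand) for RFC3 and chr19:4909381-4909500 (plus strand) for UHRF1.
MCM7: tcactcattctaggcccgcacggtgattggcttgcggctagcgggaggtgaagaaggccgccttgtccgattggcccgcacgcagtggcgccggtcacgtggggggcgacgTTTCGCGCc
GINS2: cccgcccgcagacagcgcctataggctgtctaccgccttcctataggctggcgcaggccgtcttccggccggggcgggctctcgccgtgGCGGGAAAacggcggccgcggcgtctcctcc
RFC3: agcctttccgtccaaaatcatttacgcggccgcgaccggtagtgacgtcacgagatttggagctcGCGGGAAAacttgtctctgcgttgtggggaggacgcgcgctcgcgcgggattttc
UHRF1: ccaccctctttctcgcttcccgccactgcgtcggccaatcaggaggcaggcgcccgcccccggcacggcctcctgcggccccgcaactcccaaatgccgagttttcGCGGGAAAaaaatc
The first base of the match lay 9 bases before the start in MCM7, 31 in GINS2, 55 in RFC3 and 14 in UHRF1.

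Genes of mitosis gave no call. Of 29 measured, 0 passed in limma and 9 had an unadjusted p under 0.05, beside 13.6% of all genes. The median log2 difference was -0.23, with -0.04 at day 9 and -0.40 at day 10, and 25 of the 29 were lower. The summed signal overlapped, from 34698 to 52382 at days 9-10 and from 49929 to 56538 at days 7-8. CCNA2, the cyclin of S phase and G2, had the smallest p, with a log2 difference of -0.38 (SE 0.13, limma adjusted p = 0.15). MKI67, the proliferation antigen Ki-67, was at -0.12 (SE 0.22, limma adjusted p = 0.87). TOP2A, which untangles sister chromosomes and was singled out after its value was seen, was at 0.01. Whether replication and mitosis genes differ in their change was not tested.

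Among 19 cell cycle arrest genes and inhibitors of cyclin-dependent kinases, 2 rose and none fell, beside 0.426% of all genes that rose, and the list's median was 0.20. CDKN1C, which encodes p57, an inhibitor of cyclin-dependent kinases expressed from the maternal allele, had 395 and 402 on day 9 and 358 and 595 on day 10, against 186 and 187 on day 7 and 224 and 237 on day 8. No sample of days 9-10 overlapped days 7-8, and the log2 difference was 1.05 (SE 0.20, limma adjusted p = 0.0097). CDKN1A, which encodes p21, had 314 and 255 on day 9 and 393 and 403 on day 10, against 277 and 221 on day 7 and 176 and 146 on day 8. The pools overlapped at 1 sample each, and the log2 difference was 0.76 (SE 0.18, limma adjusted p = 0.033). GDF15, a secreted stress-response protein of the TGF-beta family and a target of p53, was the only one of 18 measured p53 targets that was called, with a log2 difference of 1.38 (SE 0.28, limma adjusted p = 0.013). Its probe set is of the kind that can cross-hybridise, and without the detection filter, which takes another probe set, GDF15 turned to -0.085 and the list had 0 calls.

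**Figure D3:**
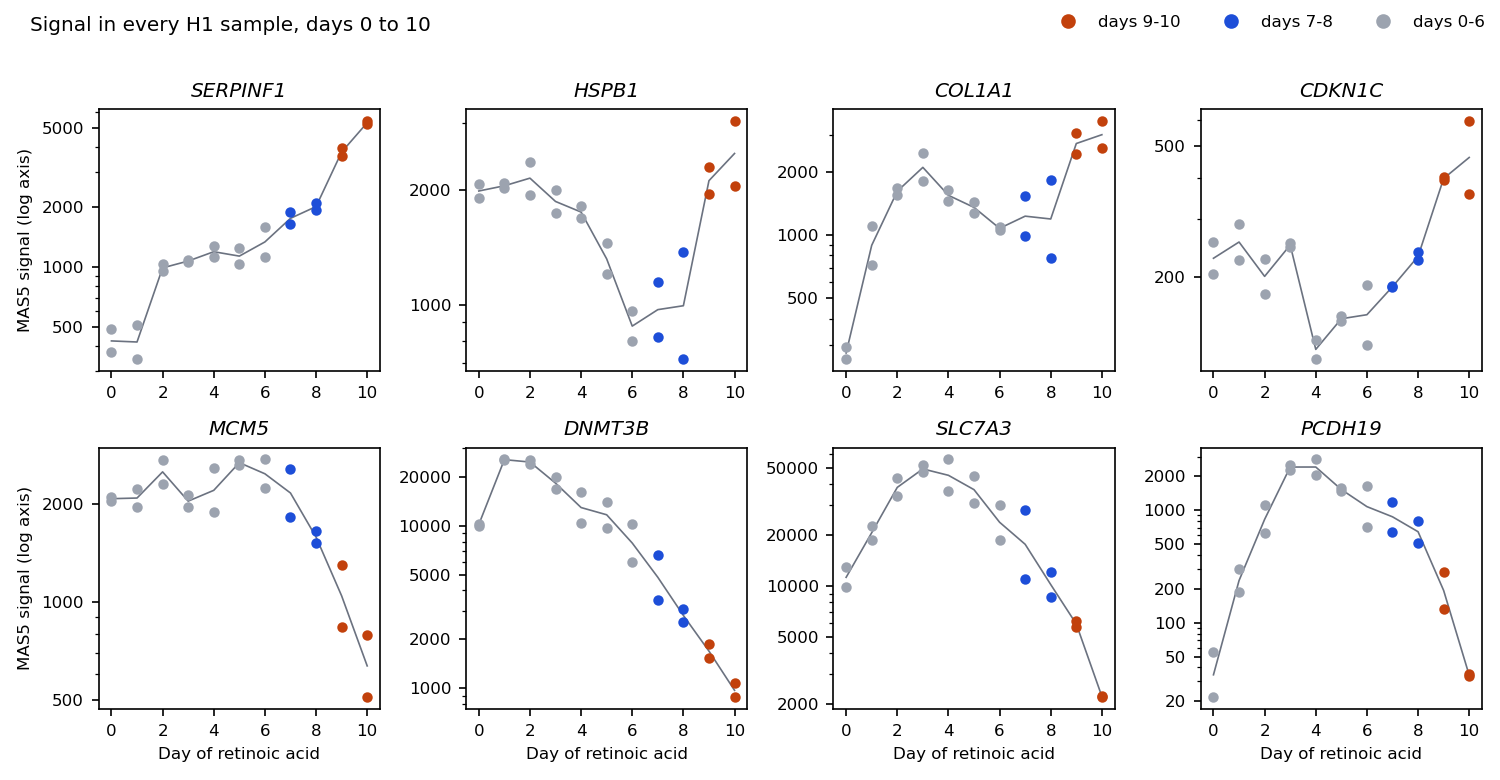
MAS5 signal (vertical axes, log scale) of 8 genes in each H1 sample against the day of retinoic acid (horizontal axes); points are samples, 2 per day, and the line joins the day means of the log2 signal. In SERPINF1, HSPB1, COL1A1 and CDKN1C every point of days 9-10 lies above every point of days 7-8, and in MCM5, DNMT3B, SLC7A3 and PCDH19 below.

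A few extracellular matrix genes rose. Of 29 measured genes of a fibroblast and matrix list, 5 rose and none fell, beside 0.426% of all genes that rose, the median log2 difference was 0.43, and 21 of the 29 were higher. The summed signal ranged from 49996 to 70006 at days 9-10 and from 33637 to 49292 at days 7-8. The genes were COL1A1 and COL1A2, the chains of type I collagen, FN1, fibronectin, COL4A1, a basement membrane collagen, and TIMP3, an inhibitor of matrix proteases. FN1 and COL4A1 were added after their values were seen.

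COL1A1 had 2434 and 3048 on day 9 and 2590 and 3475 on day 10, against 1536 and 984 on day 7 and 1823 and 779 on day 8. Its log2 difference was 1.24 (SE 0.21, limma adjusted p = 0.0042). The other COL1A1 probe sets gave smaller rises, of 0.74 and 0.50, without a call. COL1A2 had 5553 and 6745 on day 9 and 6246 and 9819 on day 10, against 3448 and 2601 on day 7 and 4870 and 2754 on day 8, a log2 difference of 1.06 (SE 0.21, limma adjusted p = 0.0099). In both chains all samples of days 9-10 were above all of days 7-8, and at days 7-8 replicate 2 was the lower of each pair. TIMP3 had 329 and 537 on day 9 and 335 and 519 on day 10, against 227 and 83.5 on day 7 and 255 and 124.35 on day 8, a log2 difference of 1.42 (SE 0.33, limma adjusted p = 0.030). FN1 and COL4A1 had log2 differences of 1.02 and 0.49.

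Other collagens did not pass. COL3A1, the chain of type III collagen, had 15952 and 8978 on day 9 and 17936 and 7380 on day 10, against 10078 and 6703 on day 7 and 12545 and 7593 on day 8. The pools overlapped, and the log2 difference was 0.39 (SE 0.43, limma adjusted p = 0.76). DCN and LUM, proteoglycans of connective tissue fibroblasts, were at -0.93 and -0.49 without a call (limma adjusted p = 0.33 and 0.93). VIM, the intermediate filament of mesenchymal and of undifferentiated cells, fell, with 3473 and 4005 on day 9 and 2396 and 2218 on day 10, against 4572 and 7448 on day 7 and 4202 and 4489 on day 8. Its log2 difference was -0.78 (SE 0.16, limma adjusted p = 0.016). The matrix list had 1 call in the fit to the 8 samples alone and 0 as 2 pools without a day term. It had 1 without replicate 2 of day 7 or of day 8, 2 without replicate 2 of day 9 and 3 without replicate 2 of day 10.

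Several secreted and stress proteins rose with separate signals in the pools. SERPINF1, which encodes the anti-angiogenic factor PEDF, had 3605 and 3958 on day 9 and 5220 and 5394 on day 10, against 1635 and 1882 on day 7 and 1933 and 2089 on day 8. Its log2 difference of 1.25 (SE 0.15) had the smallest adjusted p of the late step (limma, 0.00023), one that AKAP7 and POU5F1B shared. AKAP7, an anchoring protein of protein kinase A, had a log2 difference of 1.72 (SE 0.20). The other AKAP7 probe sets gave 1.14 (SE 0.32) and -0.17 (SE 0.59), without a call. HSPB1, the small heat shock protein HSP27, had 1954 and 2295 on day 9 and 2054 and 3034 on day 10, against 1146 and 820 on day 7 and 1372 and 719 on day 8, a log2 difference of 1.23 (SE 0.18, limma adjusted p = 0.00086). It was the only call among 11 measured heat shock genes, whose median was -0.17.

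EFEMP1, a fibulin of the matrix, rose by 1.28 on the log2 scale (limma adjusted p = 0.0044) and CHST15, a sulfotransferase that modifies chondroitin sulfate, by 1.25 (limma adjusted p = 0.0017). LGALS3, the lectin galectin-3, rose by 1.09 (limma adjusted p = 0.0083). TTR, the carrier of thyroxine and of retinol-binding protein that visceral endoderm and liver secrete, had 1139 and 580 on day 9 and 1302 and 709 on day 10, against 162 and 263 on day 7 and 372 and 593 on day 8. Its pools overlapped at 1 sample each, and the log2 difference was 1.504 (SE 0.33, limma adjusted p = 0.024). AFP, a fetal serum protein of the same tissues, was present in 2 of 4 samples of days 9-10 and 0 of 4 of days 7-8, and its log2 difference of 1.83 was not called (SE 0.77, limma adjusted p = 0.29). Of 9 measured hepatic and visceral endoderm genes, 1 rose and 0 fell, beside 0.426% of all genes that rose. The list as a whole did not move up, with 4 genes higher, 5 lower and a median of -0.25.

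Of 18 measured hypoxia genes, 2 rose and none fell, beside 0.426% of all genes that rose, with a median of 0.28. VEGFA, the endothelial growth factor, had 872 and 785 on day 9 and 1262 and 1340 on day 10, against 459 and 398 on day 7 and 722 and 376 on day 8. The pools did not overlap, and the log2 difference was 1.14 (SE 0.24, limma adjusted p = 0.017). P4HA2, a prolyl hydroxylase that matures collagen, rose by 0.80 (SE 0.17, limma adjusted p = 0.018). Both calls were lost without replicate 2 of day 7, without replicate 2 of day 8 and without replicate 2 of day 10.

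**Figure D4:**
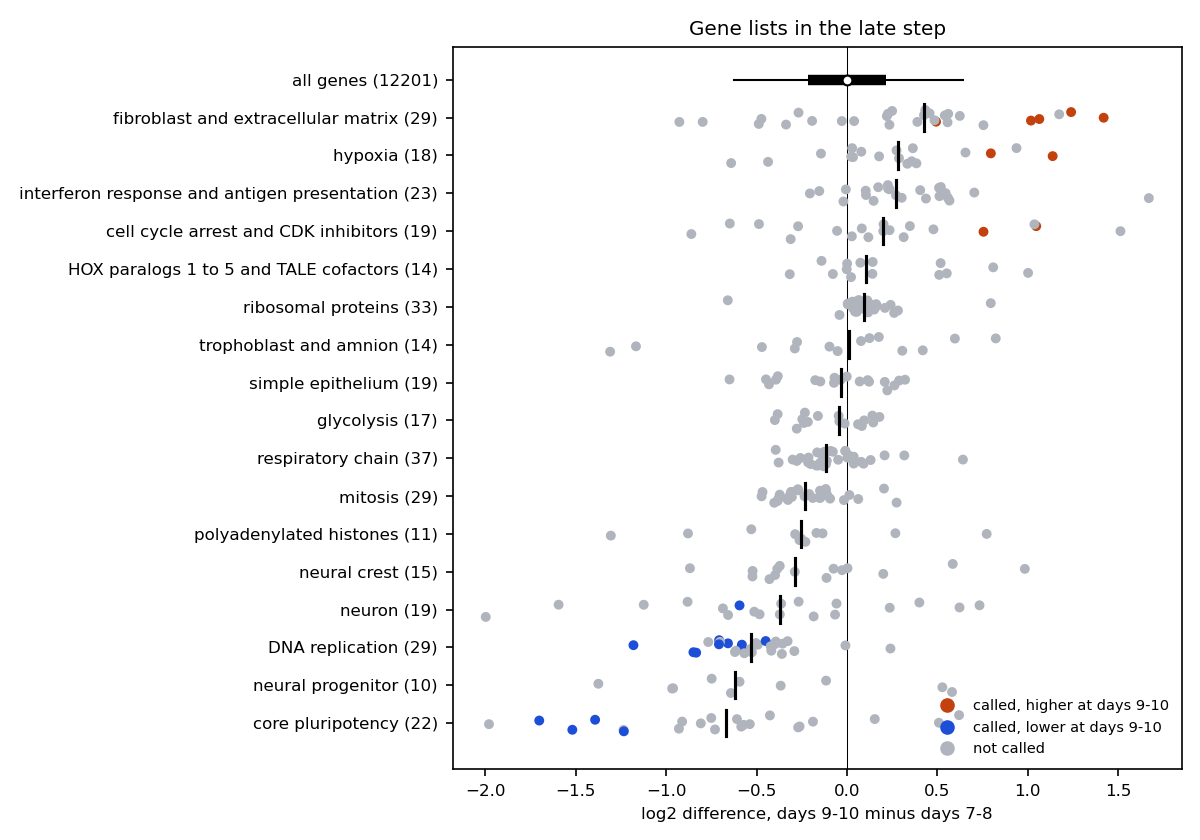
Log2 difference, days 9-10 minus days 7-8 (horizontal axis), of each measured member of 17 gene lists (rows, number of measured genes in brackets). Points are genes coloured by call and the vertical bars are list medians; the top row gives all 12201 genes as the median (open circle), the middle 50% (thick line) and the 5th to 95th percentile (thin line). The core pluripotency, neural progenitor and DNA replication medians lie at -0.67, -0.62 and -0.53 and the matrix median at 0.43.

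Genes of the retinoic acid response gave a single call. Of 17 measured genes of retinoid metabolism and response, none rose and 1 fell, beside 1.03% of all genes that fell. Of the 17, 6 had an unadjusted p under 0.05, beside 13.6% of all genes. The list's median was 0.19, and 13 of the 17 were higher. CYP26A1, the main retinoic acid hydroxylase, had 23755 and 33595 on day 9 and 24229 and 37009 on day 10, against 24357 and 29309 on day 7 and 23393 and 24333 on day 8. Its log2 difference was 0.20 (SE 0.16, limma adjusted p = 0.62), and its signal at day 0 averaged 1508. RARB, a retinoic acid receptor that is induced by its own ligand, was at 0.14 (SE 0.30, limma adjusted p = 0.89) and DHRS3, a retinal reductase, at 0.43 (SE 0.19, limma adjusted p = 0.33). CYP26B1, a second hydroxylase, was at 1.33 with an SE of 0.57 (limma adjusted p = 0.29). The gene that fell was ALDH1A3, a retinoic acid synthase, which was present in 0 of 4 samples of days 9-10 and 1 of 4 of days 7-8 and was at least 1.62-fold lower (limma adjusted p = 0.031). Its call was lost in 15 of 24 alternative fits. With 32 added to each signal, 2 genes of the list rose and 0 fell.

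HOX genes and their partners gave no call. Of 14 measured members of paralogs 1 to 5 with the TALE cofactors, and of 8 of paralogs 6 to 13, 0 were called in limma, and 1 and 0 of them had an unadjusted p under 0.05. Summed over paralogs 1 to 5 and the cofactors, the signal ranged from 41427 to 50580 at days 9-10 and from 37422 to 40607 at days 7-8, with no overlap. Of these 14 genes, 4 were higher and 0 lower with separate signals in the pools, beside 385 higher (3.16%) and 504 lower (4.13%) of all genes. The median log2 difference of both lists was 0.11. HOXB2 had 3103 and 4528 on day 9 and 3805 and 3817 on day 10, against 4035 and 4105 on day 7 and 3551 and 3258 on day 8, and its log2 difference was 0.02 (SE 0.29, limma adjusted p = 0.98). MEIS2, a TALE cofactor, had a log2 difference of 0.00 (SE 0.49, limma adjusted p = 1.00) and HOXB5 one of -0.08 (SE 0.17, limma adjusted p = 0.89). The SE of 0.49 leaves room for a change of some size in MEIS2.

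Several lineage lists gave no call. GATA3 had 3553 and 3655 on day 9 and 3985 and 3370 on day 10, against 3447 and 3957 on day 7 and 3309 and 3112 on day 8, with a log2 difference of 0.08 (SE 0.38, limma adjusted p = 0.96). GATA6, TFAP2A and KRT7 had log2 differences of 0.08, -0.40 and -0.45, with SEs of 0.54, 0.51 and 0.52. KRT19, a keratin of simple epithelia, had 7176 and 6992 on day 9 and 4700 and 5967 on day 10, against 7641 and 8448 on day 7 and 8100 and 7771 on day 8. Its pools did not overlap, yet the log2 difference of -0.38 was not called (SE 0.17, limma adjusted p = 0.30). In limma, 0 genes were called among 19 of simple epithelium, 14 of trophoblast and amnion, 11 of definitive endoderm, 15 of neural crest and 10 neural progenitor genes. At an unadjusted p under 0.05 were 2, 2, 0, 1 and 2 of them, beside 13.6% of all genes. The neural progenitor list had a median of -0.62, with 8 of the 10 genes lower. Of the 10, 4 were present in all 8 samples and 2 in none. The list's summed signal overlapped, from 5484 to 7509 at days 9-10 and from 4931 to 7248 at days 7-8. Among the lower genes, PAX6 was at -0.97 (SE 0.61, limma adjusted p = 0.53) and SOX3 at -0.96 (SE 0.32, limma adjusted p = 0.16). Of 19 measured neuron genes, 1 fell and 0 rose, beside 1.03% of all genes that fell. An unadjusted p under 0.05 was seen in 8 of the 19, beside 13.6% of all genes. The neuron median was -0.37, and 15 of the 19 were lower. The call was TUBB3, a neuronal tubulin that stem cells also contain, with a log2 difference of -0.59 (SE 0.14, limma adjusted p = 0.034). Its probe set can cross-hybridise.

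Ribosomal protein, respiratory chain and glycolysis lists, with 33, 37 and 17 measured genes, also had 0 calls in limma, with 2, 3 and 2 genes at an unadjusted p under 0.05 and medians of 0.10, -0.12 and -0.05. Of 23 measured interferon response and antigen presentation genes 19 were higher, 5 had an unadjusted p under 0.05, beside 13.6% of all genes, and 0 were called, with a median of 0.27. Its member with the smallest p, IRF9, was at 0.57 (limma adjusted p = 0.15). Iron, zinc and metallothionein genes, 16 measured, had a median of 0.45, with 11 higher and 5 lower. Of these 16, 4 had an unadjusted p under 0.05 and 0 were called.

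A few genes crossed the detection limit. Called present in all 4 samples of days 9-10 and in none of days 7-8 was C1S, a protease of the complement cascade, at least 3.23-fold higher (limma adjusted p = 0.024). Its signal was 190 and 105 on day 9 and 189 and 282 on day 10, against 52.6 and 62.7 on day 7 and 26.9 and 98.9 on day 8. Present in none of days 9-10 and in all 4 of days 7-8 were PCDH19, ENPP1, NMNAT2 and EPHA1. PCDH19, a protocadherin of the cell surface, had 282 and 132.6 on day 9 and 33.3 and 34.8 on day 10, against 640 and 1196 on day 7 and 514 and 806 on day 8, and was at least 7.38-fold lower (limma adjusted p = 0.00026). ENPP1, a pyrophosphatase that limits mineralisation, was at least 1.95-fold lower, NMNAT2, an enzyme of NAD synthesis, at least 1.72-fold and EPHA1, an ephrin receptor, at least 1.45-fold. These bounds set the brighter pool against the lowest signal called present on each array, or the gene's own signal where that was higher. Of the 178 called genes, 6 had no present call in either pool and carry no fold here.

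The called genes had taken different paths before day 7. The step from day 0 to days 5-6 shares no samples with the late step, although both use the spread estimated from all 26 samples. In that earlier step 1189 genes were called higher, or 9.75%, and 823 lower, or 6.75% (limma). Of the 126 genes that fell late, 32 had been called lower by days 5-6 (25.4%), 17 had been called higher (13.5%) and 77 had not been called. Of the 52 that rose late, 5 had been called higher (9.62%), 9 had been called lower (17.3%) and 38 had not been called.

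Among the genes that went up and then down, PCDH19 had a log2 difference of 5.22 between days 5-6 and day 0. It averaged 38 at day 0, below its own signals called absent on day 9, so the size of that rise is uncertain. MYCT1, a nuclear protein gene named for its regulation by MYC, had been 4.55 higher at days 5-6 and then fell by 1.30, with 1443 and 1114 on day 9 and 1053 and 766 on day 10, against 2378 and 3564 on day 7 and 2068 and 2753 on day 8. ID4, an inhibitor of basic helix-loop-helix factors and a target of BMP, had been 3.23 higher and then fell by 1.19 (SE 0.23, limma adjusted p = 0.0084). CTSV, a lysosomal cysteine protease, had been 2.01 higher and then fell by 1.15 (SE 0.20, limma adjusted p = 0.0037). All 3 were present in all 8 samples and had no overlap between the pools, and each stayed above its day 0 mean in the pool mean of days 9-10.

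HSPB1, VEGFA, AKAP7 and P4HA2 went the other way, called lower by 0.89, 1.00, 1.19 and 0.76 at days 5-6 and higher late. COL1A1 and SERPINF1 moved up in both steps, by 2.13 and 1.53 at days 5-6. GAL and USP44 moved down in both, by 2.35 and 1.98 at days 5-6, while DNMT3B was close to its day 0 level at days 5-6, with a log2 difference of -0.09.

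**Figure D5:**
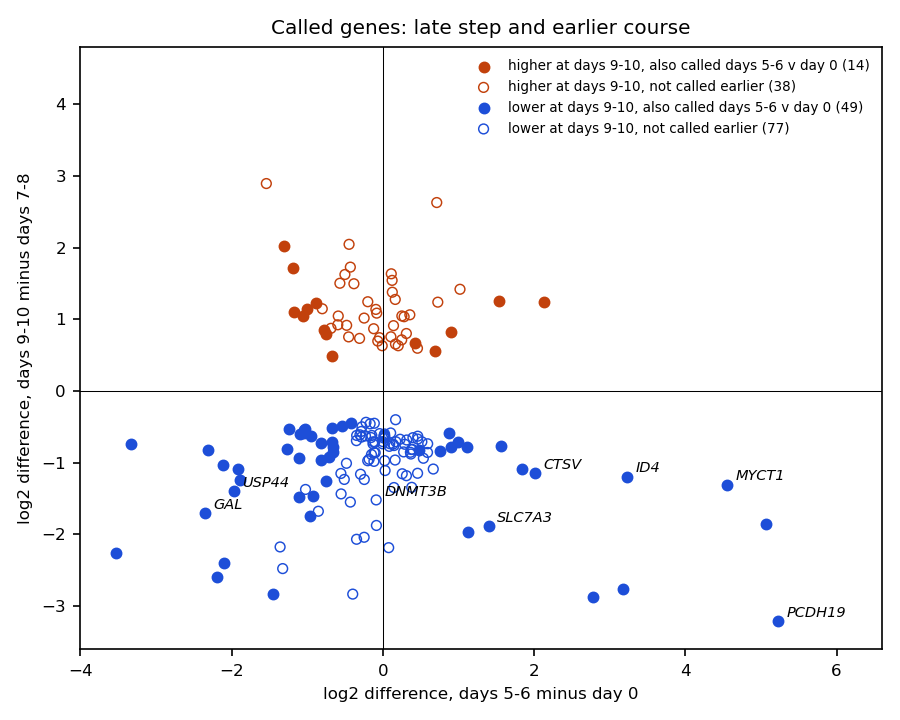
Log2 difference of the late step, days 9-10 minus days 7-8 (vertical axis), against that of the earlier course, days 5-6 minus day 0 (horizontal axis), for the 178 called genes. Filled points were also called in the earlier course, 14 of the genes that rose late and 49 of those that fell; PCDH19 lies at 5.22 and -3.21.

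Whether the late step broke with the step before it was tested through the difference of the 2 steps, days 9-10 minus days 7-8 less days 7-8 minus days 5-6. The steps share the day 7-8 samples, which the test allows for. Of 12201 genes, 1 was called in limma (0.0082%), and 323 had an unadjusted p under 0.05. The gene was SELENOM, a selenoprotein of the endoplasmic reticulum, named because it was the only call. Its signal was 120 and 251 on day 9 and 295 and 225 on day 10, against 319 and 186 on day 7 and 19.5 and 42.7 on day 8. It was present in 2 of 4 samples of days 9-10 and 1 of 4 of days 7-8, and the low values were those of day 8. The call was absent without the detection filter, after quantile normalization, with an offset of 32 and without the intensity trend. With 1 sample left out it held without replicate 2 of day 8, replicate 1 of day 9 or replicate 2 of day 10, and was absent in the other 5 fits.

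DUSP6 and SC5D were also the single calls of their lists, and both fell. DUSP6, a phosphatase of the ERK kinases whose level follows their activity, had 378 and 454 on day 9 and 516 and 159 on day 10, against 1208 and 1985 on day 7 and 1115 and 1631 on day 8. The pools did not overlap, and the log2 difference was -2.07 (SE 0.44, limma adjusted p = 0.018). It was the only call among 16 measured immediate early genes. SC5D, a desaturase of cholesterol synthesis, had a log2 difference of -0.77 (SE 0.14, limma adjusted p = 0.0072) and was the only call among 20 genes of cholesterol and fatty acid synthesis. Another SC5D probe set went the other way, at 0.73 (SE 0.30), and with the mean of probe sets SC5D was at -0.021 and the list had 0 calls.

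Other genes named for the size of their change and the separation of the pools were TMEM178A, GUCY1A2, RIPPLY3 and IGIP among those that rose. RIPPLY3 encodes a repressor that partners T-box factors, and had 1073 and 1341 on day 9 and 905 and 1093 on day 10, against 346 and 412 on day 7 and 518 and 618 on day 8. Their log2 differences were 1.15, 1.14, 1.24 and 1.54. Among those that fell were DIAPH2, a formin that builds actin filaments, at -1.25, MATR3, a nuclear matrix protein, at -1.23, BEND4 at -1.15 and PPM1E, a protein phosphatase, at -1.16. MATR3 had 414 and 468 on day 9 and 508 and 320 on day 10, against 991 and 1523 on day 7 and 705 and 902 on day 8. Of the 178 called genes, 89 had several probe sets that passed the filter, and in 72 of them all pointed the same way. In 1, CPT1A, another probe set went over 2-fold the other way.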

How the data were processed

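The authors made the deposited signal, a linear intensity, with MAS5 (version not given), per the submitters' processing notes. Its 2% trimmed mean lay between 500.17 and 500.25 over the 52 arrays, so the arrays had been scaled alike. The deposited detection p-value of each probe set gave the present calls (under 0.05), and the 52 columns of the authors' calls were not used. No genome build was needed, and names come from the array annotation, which ties 34491 probe sets to 1 gene, 1597 to several and 8704 to none. Of the first, 34454 matched RefSeq by gene identifier. Probe sets with under 2 present calls among the 26 arrays of a chip were dropped, and the brightest per gene was used, those named as cross-hybridising last. This left 12201 genes, of which the A chip gave 6895 and the B chip 5306.

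The log2 signal was fitted in limma 3.58.1 (R 4.3.3), each chip by itself, with 1 mean for each of 13 groups of 2 samples, an intensity trend and empirical Bayes moderation. The late step is the mean of days 9 and 10 minus that of days 7 and 8. P-values are two-sided and Benjamini-Hochberg adjusted over the genes of both chips, with a call at an adjusted p under 0.05. The fit was also run on simulated data with 1 mean per pool and independent noise per sample. That run cannot show how day-to-day drift or deviations shared between samples affect the calls. The ACTB ratios were compared by exact permutation (scipy 1.17.1). The number of arrays limits the precision. Genes named are the 12 largest called rises and falls with separate pools and present calls in at least 3 of 4 samples of each, called genes that switch between 4 and 0 present calls, up to 3 called members of each list or the one with the smallest p, and a fixed set. IGF2 and H19 of that set were not analysed here. The members and lists were chosen with earlier results of these data known. Alternatives covered the samples fitted, the block, the filter, normalization, offset, trend, probe set rule, ACTB ratio and days.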

Additional observations from a re-analysis of the deposited data

Results flagged for a closer look

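Within each pool of 4 samples, a sample was singled out where its gap to the nearest other took more of the pool's range than Dixon's critical value allows. This was so in 11 of 192 pools examined, or 5.73%, and chance gives about 5%. In the array measures, the ACTB 3′ to 5′ ratio of day 10 replicate 1 on the A chip was high at 1.89, and the share of probe sets called present in day 7 replicate 2 on the B chip was low at 34.5%. Day 7 replicate 2 was also apart in VIM (7448, high), HOXC5 (712, low) and IRF9 (252, low). Day 8 replicate 1 was low in ENPP1 (207), ID4 (2309) and RARB (496), and day 8 replicate 2 was low in NANOG (115.5). Day 10 replicate 2 was low in GATA6 (1263) and SC5D (1391). These gene values are MAS5 signals within days 9-10 or days 7-8.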

How the results depend on the processing

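The late step had 178 calls. It had 16 in the 8 samples alone (9 higher, 7 lower) and 1 as 2 pools without a day term (higher), although the direction of all 178 genes was kept in both. With the replicate block it had 463, after quantile normalization 281 and without the intensity trend 116. With day 10 alone it had 278 and with day 9 alone 0 (716 at an unadjusted p under 0.05). Against day 7 alone it had 217 and against day 8 alone 6 (3 higher, 3 lower). Leaving out 1 sample at a time gave 69 to 294. Fewer calls came without replicate 2 of day 7 (69), day 8 (71), day 9 (101) or day 10 (94) or replicate 1 of day 8 (113), and more without replicate 1 of day 10. In every alternative but 2 all measured calls kept their direction: 177 of 178 did without the detection filter and 176 of 178 with the mean of probe sets. The labels do not tie same-numbered replicates together. Their deviations correlated over 0.1 in 3 of the 6 pairs of days 7 to 10 and under it in 3 (range 0.079 to 0.291), so whether the numbers pair the samples is unsettled. The block raised the falls in core pluripotency to 10 and in DNA replication to 13. In the 8 samples alone the falls were 1 in core pluripotency and 0 in DNA replication. The difference of steps had 1 call. It had 0 without the detection filter, after quantile normalization, with the offset of 32 and without the trend, and 0 to 6 when 1 sample was left out. The earlier course stayed within 1.5 times its 2012 calls under the settings tried. With 1 sample left out, the ACTB ratio difference was 0.0017 to 0.15 (A chip) or -0.0042 to 0.13 (B chip). Over 90 named genes and 24 alternatives, 1799 of 2160 values kept their direction and side of the threshold, 325 lost a call and 35 gained one. Of the 90, 44 were called, and all 325 losses fell on these. Of the 44, 0 kept the call under every alternative, since day 9 alone gave 0 calls. GDF15 turned to -0.085 without the detection filter, which changes the probe set taken.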

Other observations

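Genes outside the lists made up 107 of the 126 falls and 39 of the 52 rises. Those described next were picked after their values were seen. Among the falls was CAD, which starts pyrimidine synthesis. It had 776 and 775 on day 9 and 588 and 668 on day 10, against 1248 and 1387 on day 7 and 794 and 980 on day 8, a log2 difference of -0.63 (limma adjusted p = 0.014). CTPS1, which makes CTP, was at -0.74 and MTHFD1, an enzyme of folate metabolism, at -0.85 (limma adjusted p = 0.012 and 0.0037). CHAF1A, which deposits histones on new DNA, was at -0.95 and NASP, a histone chaperone, at -0.62 (limma adjusted p = 0.0085 and 0.044). GJA1, the gap junction protein connexin 43, had 6431 and 4174 on day 9 and 4636 and 3210 on day 10, against 8309 and 7281 on day 7 and 8040 and 8708 on day 8, a log2 difference of -0.85 (limma adjusted p = 0.0013). STMN1, which destabilises microtubules, was at -0.83 (limma adjusted p = 0.00086). In all of these the pools did not overlap.

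Among the rises was ACSL1, an acyl-CoA synthetase. It had 323 and 333 on day 9 and 402 and 455 on day 10, against 58.3 and 71.0 on day 7 and 116 and 150 on day 8, a log2 difference of 2.02 (limma adjusted p = 0.0055). CPT1A, which passes fatty acids to carnitine for import into mitochondria, was present in 3 of 4 samples of days 9-10 and 0 of 4 of days 7-8 and was at least 2.06-fold higher (limma adjusted p = 0.0075). Its other probe sets disagreed, with log2 differences of -1.53 (SE 0.46) and 0.35 (SE 0.29), so the direction of CPT1A is uncertain. ACADVL, a dehydrogenase of fatty acid oxidation, was at 0.63 (limma adjusted p = 0.027). SAT1, which acetylates polyamines, was at 1.04, TSC22D3, a glucocorticoid-induced leucine zipper protein, at 1.05 and TXNIP, an inhibitor of thioredoxin, at 0.70 (limma adjusted p = 0.015, 0.016 and 0.036). Other probe sets of TSC22D3 did not repeat its rise, with log2 differences of 0.16 (SE 0.42) and -0.56 (SE 0.57). SLC16A14, a transporter of the monocarboxylate family, had 907 and 6634 on day 9 and 1156 and 7384 on day 10, against 470 and 457 on day 7 and 787 and 1042 on day 8. Its 2 high values were replicate 2 of days 9 and 10, and its log2 difference was 2.05 (SE 0.48, limma adjusted p = 0.030).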
